A study of Mus musculus with 12 samples.

Results

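Expression of 37 genes of epithelial cell junctions was measured in the fetal membranes of mice, which surround the fetus and its fluid. The 37 genes were taken from a named list of mouse symbols, whose rule uses no measured value, though it was drawn up with earlier results of these data known. All 37 were found among the 48795 genes of the count table, and all 37 had enough counts to be tested, beside 18153 tested genes in all. They comprise 3 genes of adherens junctions and cell adhesion, 11 claudins, 4 other membrane proteins and 4 cytoplasmic proteins of tight junctions, 3 genes of desmosomal membrane proteins, 5 of the desmosomal plaque, 2 cytolinkers, 2 polarity genes, 2 epithelial splicing factors and 1 surface protease.

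RNA was sequenced from membranes of mice lacking both decorin (Dcn) and biglycan (Bgn), proteoglycans of the collagen-rich matrix, and from wild-type (WT) mice, in a series titled as a model of preterm birth. The series' purpose, as its design text states it, was to set the double knockout (DKO) against WT at 2 stages. There were 12 libraries in 4 groups of 3: DKO at embryonic day 18 (E18), WT labelled E18, DKO at E12 and WT at E12. The labels give the strain of both DKO groups as C3H and C57BL/6 and that of both WT groups as C3H, so genotype and strain cannot be told apart. They do not say whether the 3 libraries of a group came from separate animals or litters, so the p-values measure only the spread between these libraries, which may be technical.

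Epithelial cells are joined to their neighbours by tight junctions, adherens junctions and desmosomes. Claudins and occludin form the strands of the tight junction, and the mix of claudins sets which ions and solutes pass between cells. Cadherins hold cells together at adherens junctions, and desmosomal cadherins tie through plakoglobin, plakophilins and desmoplakin to keratin filaments. In the fetal membranes these junctions seal the amnion epithelium around the amniotic fluid and the visceral endoderm of the yolk sac, which takes up nutrients for the fetus.

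Libraries held 19967593 to 33065424 counts. Bgn lay between 14.3 and 25.1 CPM (counts per 1000000 of the library size after TMM scaling) in the 6 DKO libraries, against 223 to 686 CPM in the 6 WT libraries. Dcn lay between 4.67 and 8.44 CPM in DKO, against 198 to 978 CPM in WT. Embryonic beta-like globins, made by the early red cells of the yolk sac and replaced by adult globins before birth, went against some stage labels. Their share of all beta-like globin counts was 1.33% to 2.67% in E18 DKO, 74.8% to 87.8% in the libraries labelled E18 WT, 82.3% to 85.1% in E12 DKO, and 14.8%, 95.1% and 97.1% in E12 WT 1, 2 and 3. The shares of the WT libraries labelled E18 were thus near those of E12 DKO, and E12 WT 1 stood apart from the other two of its group. They are called "labelled E18 WT" below, and E12 WT 1 is left out where that changes a result. Mitochondrial genes took 21.2% of the counts in E12 WT 3 and 3.58% to 7.78% in the other 11 libraries. The visceral endoderm marker Afp, a fetal serum protein gene, stood at 39239.5 CPM or more in all 12 libraries. E18 comparisons of genotype may therefore hold a difference of stage as well, and genotype and stage cannot be told apart in them. The E12 comparison of genotype and the comparison of WT stages include E12 WT 1, so they may be mixed in stage too.

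Promoter sequences of 4 members that turn up in the results below are shown first, because they hold the E-box CAGGTG, a motif known to be bound at junction gene promoters by Snail and Zeb repressors. Each is the 250 bases before the start site of the RefSeq annotation (GRCm38.p6), read 5′ to 3′ on the gene's strand, with each E-box in capitals (CAGGTG, or CACCTG where it lies on the other strand). The members are F11r (chr1:171437311-171437560, plus strand), Cldn4 (chr5:134946935-134947184, minus strand), Cldn6 (chr17:23679115-23679364, plus strand) and Epcam (chr17:87635729-87635978, plus strand).
F11r: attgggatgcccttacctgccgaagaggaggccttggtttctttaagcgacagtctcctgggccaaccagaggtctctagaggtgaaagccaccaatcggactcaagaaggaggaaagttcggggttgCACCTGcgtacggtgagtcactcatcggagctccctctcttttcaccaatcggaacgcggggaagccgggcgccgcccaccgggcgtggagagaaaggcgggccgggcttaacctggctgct
Cldn4: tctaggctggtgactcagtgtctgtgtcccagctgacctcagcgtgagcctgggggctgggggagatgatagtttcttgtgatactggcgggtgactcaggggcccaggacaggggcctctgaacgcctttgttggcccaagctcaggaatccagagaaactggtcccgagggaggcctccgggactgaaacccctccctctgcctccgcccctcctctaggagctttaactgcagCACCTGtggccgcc
Cldn6: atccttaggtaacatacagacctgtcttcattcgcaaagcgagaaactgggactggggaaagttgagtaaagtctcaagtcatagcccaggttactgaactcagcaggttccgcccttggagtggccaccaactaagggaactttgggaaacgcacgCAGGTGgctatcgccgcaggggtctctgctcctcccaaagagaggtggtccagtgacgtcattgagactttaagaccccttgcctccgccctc
Epcam: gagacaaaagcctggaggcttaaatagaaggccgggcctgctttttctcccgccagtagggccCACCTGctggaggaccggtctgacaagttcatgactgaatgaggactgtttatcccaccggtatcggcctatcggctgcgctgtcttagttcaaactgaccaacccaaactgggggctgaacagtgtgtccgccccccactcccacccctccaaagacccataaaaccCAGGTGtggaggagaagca
RefSeq promoter windows of 300 bases (250 before and 50 after the start) were at hand for 20 of the 37 members. The E-box, on either strand, lay in 12 of these 20 (60%), against 22.6% of the 27025 genes with a window. Counted from the start site at 0, it began at -122 in F11r, at -14 and 11 in Cldn4, at -93 and 40 in Cldn6, and at -187 and -19 in Epcam. Among members with a window, those called higher in E18 DKO than in labelled E18 WT (tested below) held it in 6 of 8, the 1 called lower (Cldn6) held it, and those not called held it in 5 of 11. The palindrome AACCGGTT, which the Grainyhead-like factors are known to bind, was in 0 of 20 windows, against 0.174% of all genes. These matches describe the letters of the windows and are no evidence of binding.

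In E18 DKO 18 of the 37 junction genes differed from labelled E18 WT, and most of these were higher. By the quasi-likelihood test of edgeR, with p-values adjusted over all 18153 genes by the Benjamini-Hochberg method and called under 0.05, 15 members were higher and 3 lower. That is 48.6% of the members, against 42.3% of all tested genes, a share near the background. The directions differed more: 40.5% of the members were higher, against 20.5% of all genes, and 8.11% were lower, against 21.8% of all genes. The median log2 fold change was 0.52 over the members and -0.04 over all genes. With libraries scaled by their total counts alone, which moved the median of all genes by -0.36, the split was 9 higher (24.3% of the members, against 13.1% of all genes) and 6 lower (16.2%, against 33.1%). The summed level of the 37 genes was 5483, 5787 and 4591 CPM in E18 DKO and 2982, 2849 and 2841 CPM in labelled E18 WT. In bulk tissue, more or fewer cells of a type and more or less RNA per cell cannot be told apart.

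**Figure D1:**
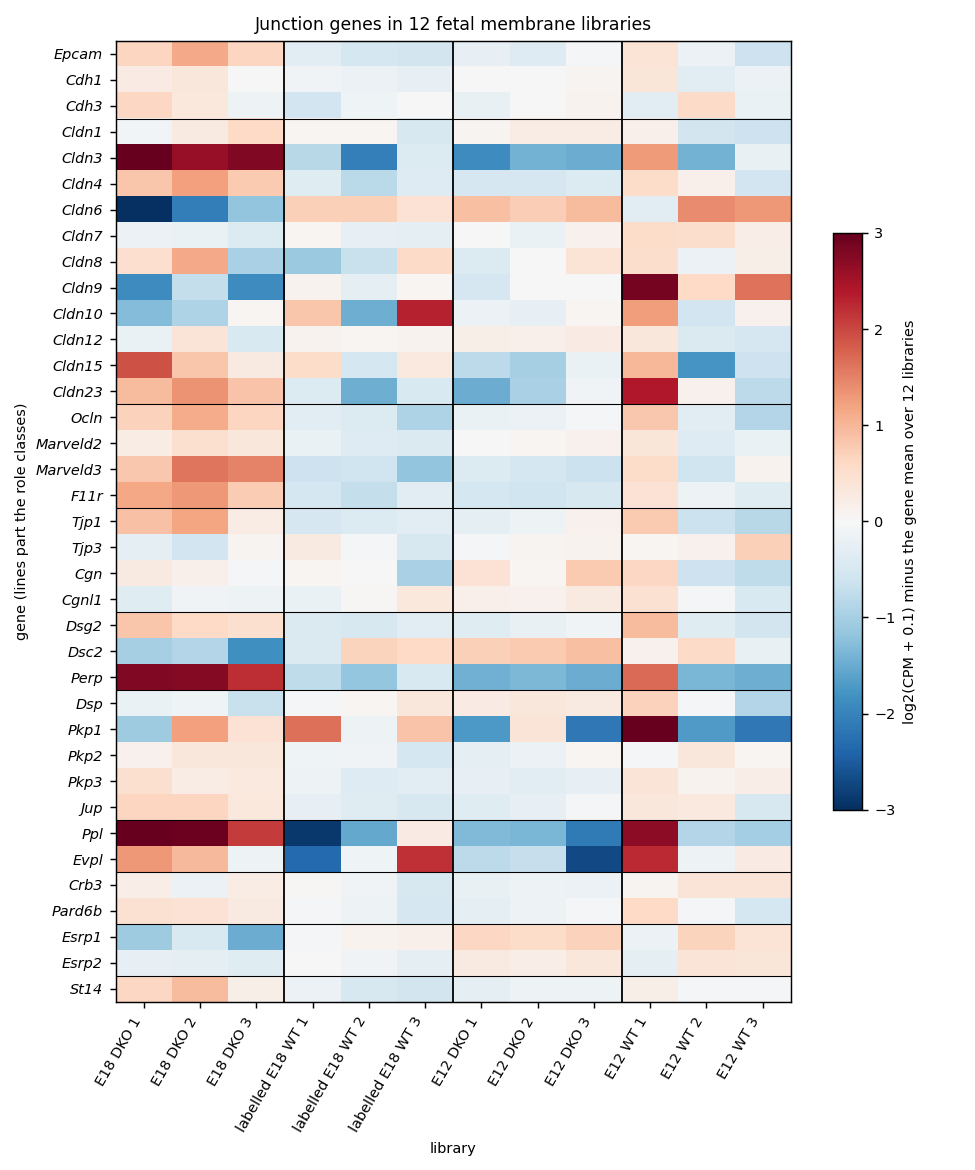
Colour gives log2(CPM + 0.1) of each junction gene (rows, grouped by role) minus its mean over the 12 libraries (columns). Cldn3, Perp and Ppl are high in the 3 E18 DKO libraries and in E12 WT 1, and Cldn6 is low in the E18 DKO libraries.

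Among the adhesion genes, Epcam was higher in E18 DKO and the classical cadherins did not pass the test. Epcam, which encodes an epithelial adhesion molecule that binds claudin 7, stood at 379.9, 532 and 376 CPM in E18 DKO, 196, 168 and 166 CPM in labelled E18 WT, 204, 184 and 235 CPM in E12 DKO, and 323, 214 and 158 CPM in E12 WT. All 3 E18 DKO libraries lay above the other 9. The log2 fold change at E18 was 1.28 ± 0.25 (SE; adjusted p = 0.00262). Cdh1, which encodes E-cadherin, stood at 566, 606 and 478 CPM in E18 DKO, 446, 423 and 406 CPM in labelled E18 WT, 476, 475 and 509.7 CPM in E12 DKO, and 617, 388 and 427 CPM in E12 WT. Its E18 groups did not overlap, yet the log2 fold change of 0.37 ± 0.20 (SE; adjusted p = 0.147) did not pass. Without E12 WT 1 the same fold change had an adjusted p of 0.0393. Cdh3, which encodes P-cadherin and lies 46054 bases from Cdh1 on chromosome 8, ran from 88.9 to 153 CPM in E18 DKO and from 66.6 to 99.1 CPM in labelled E18 WT, and the groups overlapped (log2 fold change 0.52 ± 0.27 SE, adjusted p = 0.148).

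The claudins changed in both directions: Cldn3 and Cldn4 were higher in E18 DKO, Cldn6 was lower, and 8 of 11 did not pass the test. Cldn3 and Cldn4 encode barrier-forming claudins and lie 39280 bases apart on chromosome 5 (GRCm38; Cldn3 from 134986214 to 134987472, Cldn4 from 134945119 to 134946934). Cldn3 stood at 579.9, 424 and 472 CPM in E18 DKO, 38.9, 16.7 and 52.1 CPM in labelled E18 WT, 18.7, 25.8 and 24.7 CPM in E12 DKO, and 167, 25.8 and 59.3 CPM in E12 WT. Every E18 DKO library exceeded the highest of the other 9, which was E12 WT 1. The log2 fold change at E18 was 3.78 ± 0.62 (SE; adjusted p = 0.000955). Cldn4 stood at 362, 479.8 and 353 CPM in E18 DKO, 158, 116 and 155 CPM in labelled E18 WT, 143, 143 and 152 CPM in E12 DKO, and 296, 226 and 137 CPM in E12 WT. It too was above all other libraries in all 3 E18 DKO libraries, with a log2 fold change of 1.48 ± 0.26 (SE; adjusted p = 0.00136).

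Cldn6 (chromosome 17, 23679365 to 23682446) encodes a claudin typical of embryonic epithelia. It stood at 15.9, 46.7 and 87.0 CPM in E18 DKO, 325, 325 and 267 CPM in labelled E18 WT, 368, 329.9 and 381 CPM in E12 DKO, and 156, 527 and 482 CPM in E12 WT. The 3 E18 DKO libraries were the lowest of the 12, and E12 WT 1 was the next. The log2 fold change at E18 was -2.61 ± 0.56 (SE; adjusted p = 0.00371), and it was -3.28 without E18 DKO 3, the highest of its group. Cldn9 lies 138 bases from Cldn6 on the other strand and had few reads: 0, 3 and 0 counts in E18 DKO, 8, 7 and 7 in labelled E18 WT, 5, 8 and 10 in E12 DKO, and 60, 13 and 18 in E12 WT. Its log2 fold change at E18 of -2.34 ± 1.01 (SE; adjusted p = 0.0816) did not pass, and without E18 DKO 2, which leaves a group at 0 counts, the adjusted p was 0.0204.

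Of the other claudins, Cldn7, whose protein partners with Epcam, ran from 74.9 to 88.5 CPM in E18 DKO and from 82.1 to 105 CPM in labelled E18 WT (log2 fold change -0.11 ± 0.16 SE, adjusted p = 0.611). Cldn1, a barrier-forming claudin of epidermis, ran from 150.1 to 241 CPM in E18 DKO and from 114 to 166 CPM in labelled E18 WT (0.39 ± 0.25 SE, adjusted p = 0.229). The groups overlapped in both genes. Cldn23 stood at 4.56, 6.01 and 4.25 CPM in E18 DKO and 1.70, 0.762 and 1.64 CPM in labelled E18 WT, without overlap, and missed the threshold (1.86 ± 0.74 SE, adjusted p = 0.0616). Without E12 WT 1, where it stood at 12.5 CPM, its adjusted p at E18 was 0.00696, and without E12 WT 3 it was 0.0277. Cldn10 held 2, 4 and 8 counts in E18 DKO and 22, 3 and 60 counts in labelled E18 WT, and its adjusted p was 0.092, or 0.0228 without labelled E18 WT 2. Cldn8, Cldn12 and Cldn15 had adjusted p-values of 0.339, 0.676 and 0.216.

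The mix of claudins thus differed between E18 DKO and labelled E18 WT. To compare genes, CPM was divided by gene length in kb, and each claudin was taken as a share of the 11 claudin members in the same library. Cldn3 made up 57.9%, 44.0% and 49.5% in E18 DKO, against 6.71%, 3.29% and 10.3% in labelled E18 WT, 3.23%, 4.69% and 4.01% in E12 DKO, and 23.5%, 3.33% and 8.61% in E12 WT. Cldn6 made up 1.33%, 4.06% and 7.63% in E18 DKO, against 46.9%, 53.5% and 44.0% in labelled E18 WT, 53.3%, 50.2% and 51.7% in E12 DKO, and 18.4%, 56.9% and 58.5% in E12 WT. Cldn3 led the members in all 3 E18 DKO libraries, and Cldn6 led in 8 of the other 9. The exception was E12 WT 1, where Cldn4 led. The summed claudin level was 795, 765 and 757 CPM per kb in E18 DKO, against 459.7, 403 and 403 CPM per kb in labelled E18 WT.

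Cldn2, a pore-forming claudin that is not among the 37 genes, is named here because it changes this picture. It stood at 333, 511 and 198 CPM per kb in E18 DKO, against 79.0, 88.0 and 44.5 CPM per kb in labelled E18 WT (log2 fold change of CPM 2.30 ± 0.66 SE, adjusted p = 0.0164). With every claudin of the table counted, Cldn2 held 29.0%, 39.5% and 20.3% in E18 DKO, against 14.3%, 17.5% and 9.61% in labelled E18 WT. It then led in E18 DKO 2, and Cldn3 led in E18 DKO 1 and 3. At E12 it stood at 97.7, 105 and 96.1 CPM per kb in E12 DKO and 263, 66.5 and 30.2 CPM per kb in E12 WT. It led in E12 WT 1 too, with 31.2% of all claudins.

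**Figure D2:**
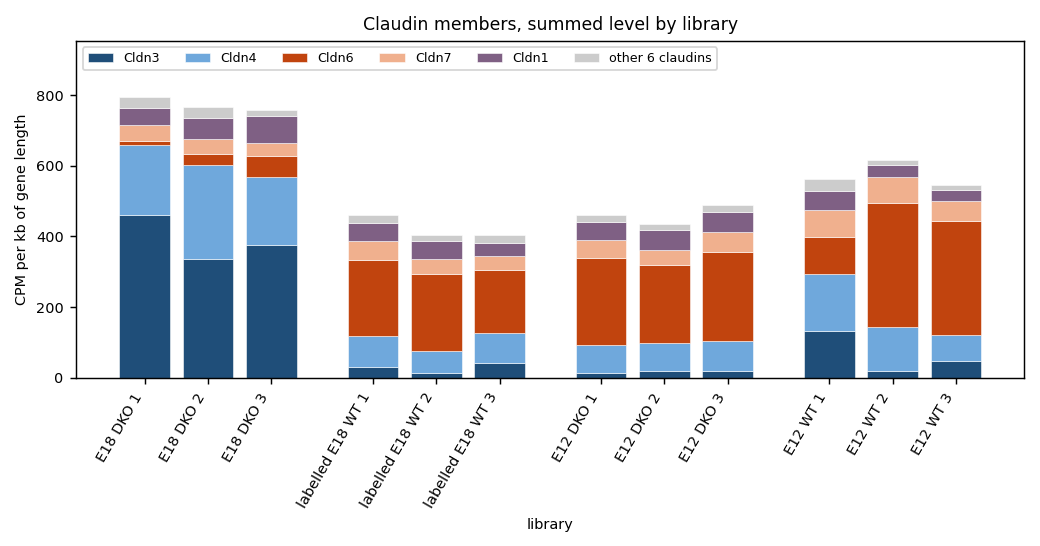
Stacked bars give the level of the claudin members in CPM per kb of gene length, 1 bar per library. Cldn3 and Cldn4 make up most of each E18 DKO bar and Cldn6 is 1.33% to 7.63% of it, while Cldn6 is 44.0% to 58.5% of the bars of the other groups except E12 WT 1, where it is 18.4%.

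All 4 genes of the other tight junction membrane proteins were higher in E18 DKO. Ocln encodes occludin, a tetraspan protein of the strands. It stood at 108, 146 and 106 CPM in E18 DKO, 53.9, 50.7 and 35.1 CPM in labelled E18 WT, 58.9, 59.7 and 65.1 CPM in E12 DKO, and 118, 53.1 and 36.2 CPM in E12 WT. The E18 groups did not overlap, and E12 WT 1 was the single other library within the E18 DKO range (log2 fold change 1.36 ± 0.36 SE, adjusted p = 0.0111). F11r, which encodes the junctional adhesion molecule JAM-A, stood at 258, 284 and 195 CPM in E18 DKO, 80.7, 70.3 and 93.0 CPM in labelled E18 WT, 80.7, 76.2 and 82.7 CPM in E12 DKO, and 157, 105 and 90.5 CPM in E12 WT. Its E18 DKO libraries were above the other 9, with a log2 fold change of 1.59 ± 0.22 (SE; adjusted p = 0.000463). Marveld3, from the occludin family, stood at 48.0, 83.7 and 76.6 CPM in E18 DKO and 17.8, 17.9 and 12.0 CPM in labelled E18 WT (2.13 ± 0.31 SE, adjusted p = 0.000508). Marveld2, which encodes tricellulin, found where corners of cells meet, stood at 30.2, 36.2 and 32.8 CPM in E18 DKO and 22.8, 20.0 and 19.3 CPM in labelled E18 WT (0.68 ± 0.19 SE, adjusted p = 0.0163). Its adjusted p was 0.0528 without E18 DKO 2, 0.055 without labelled E18 WT 2 and 0.0517 without labelled E18 WT 3.

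Of the cytoplasmic tight junction genes, Tjp1 was higher and 3 did not pass. Tjp1 encodes the scaffold ZO-1, and it stood at 240.0, 298 and 153 CPM in E18 DKO, 92.2, 98.8 and 104 CPM in labelled E18 WT, 107, 119 and 143 CPM in E12 DKO, and 226, 84.6 and 73.6 CPM in E12 WT. The E18 groups did not overlap (log2 fold change 1.23 ± 0.39 SE, adjusted p = 0.0249), but the adjusted p was between 0.0548 and 0.0857 without E18 DKO 1, E18 DKO 2 or any of the 3 labelled E18 WT libraries. Tjp3, Cgn and Cgnl1, which encode the scaffold ZO-3, cingulin and its relative paracingulin, had log2 fold changes of -0.19 ± 0.24, 0.36 ± 0.38 and -0.27 ± 0.22 (SE; adjusted p = 0.561, 0.468 and 0.356). Their ranges overlapped between the E18 groups, for example 133 to 169.9 CPM in E18 DKO and 70.7 to 146 CPM in labelled E18 WT for Cgn.

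The desmosomal membrane genes split: Perp and Dsg2 were higher in E18 DKO and Dsc2 was lower. Perp (chromosome 10, 18845071 to 18857073), a p53 and p63 target that encodes a tetraspan desmosome protein, stood at 629, 617 and 422 CPM in E18 DKO, 54.0, 40.9 and 66.6 CPM in labelled E18 WT, 33.7, 35.4 and 32.3 CPM in E12 DKO, and 293, 35.2 and 33.0 CPM in E12 WT. The E18 DKO libraries were above all others, and E12 WT 1 stood between them and the rest. The log2 fold change was 3.37 ± 0.73 (SE; adjusted p = 0.00404). Dsg2 and Dsc2 encode desmoglein 2 and desmocollin 2, the pair of desmosomal cadherins found in simple epithelia. Dsg2 stood at 157, 133 and 123 CPM in E18 DKO, 65.0, 63.1 and 70.7 CPM in labelled E18 WT, 68.3, 75.9 and 82.6 CPM in E12 DKO, and 171, 68.4 and 60.8 CPM in E12 WT. Here E12 WT 1 was the highest library of the 12. The E18 fold change was 1.06 ± 0.33 on the log2 scale (SE; adjusted p = 0.0226), with an adjusted p of 0.0721 without E18 DKO 1, 0.0654 without labelled E18 WT 1 and 0.0695 without labelled E18 WT 2. Dsc2 stood at 19.4, 21.4 and 10.9 CPM in E18 DKO, 28.7, 62.1 and 59.0 CPM in labelled E18 WT, 64.4, 67.4 and 73.6 CPM in E12 DKO, and 42.6, 58.4 and 33.4 CPM in E12 WT. Its E18 DKO libraries were the 3 lowest of the 12, with a log2 fold change of -1.54 ± 0.33 (SE; adjusted p = 0.00404). Per kb, the Dsg2 level was 5.17, 3.98 and 7.22 times that of Dsc2 in E18 DKO, against 1.45, 0.648 and 0.765 times in labelled E18 WT.

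In the desmosomal plaque, Jup, Pkp3 and Pkp2 were higher in E18 DKO and the main plaque gene, Dsp, was not. Jup, which encodes plakoglobin, the armadillo protein shared with adherens junctions, stood at 249, 249 and 198 CPM in E18 DKO and 135, 125 and 115 CPM in labelled E18 WT (log2 fold change 0.89 ± 0.22 SE, adjusted p = 0.00708). Pkp3, which encodes plakophilin 3, stood at 59.7, 49.7 and 52.6 CPM in E18 DKO and 38.5, 32.5 and 34.0 CPM in labelled E18 WT (0.63 ± 0.14 SE, adjusted p = 0.00486). In neither gene did the groups overlap. With libraries scaled by their total counts alone neither passed (adjusted p = 0.0946 for Jup and 0.18 for Pkp3). Pkp2, the plakophilin of simple epithelia and heart, stood at 79.9, 92.3 and 91.6 CPM in E18 DKO and 66.7, 67.2 and 50.6 CPM in labelled E18 WT (0.51 ± 0.17 SE, adjusted p = 0.0308). Its adjusted p was between 0.0506 and 0.108 without E12 DKO 2, E18 DKO 2, E18 DKO 3, labelled E18 WT 1 or labelled E18 WT 3. Dsp, which encodes desmoplakin, the link to keratin filaments, stood at 106, 111 and 77.0 CPM in E18 DKO, 119, 127 and 155 CPM in labelled E18 WT, 144, 155 and 147 CPM in E12 DKO, and 196, 118 and 66.0 CPM in E12 WT. All 3 E18 DKO values were below the labelled E18 WT values, and the log2 fold change of -0.45 ± 0.31 (SE; adjusted p = 0.269) did not pass. Pkp1, the plakophilin of stratified epithelia, held 2, 22 and 9 counts in E18 DKO and 34, 10 and 17 counts in labelled E18 WT, against 203 counts in E12 WT 1 alone.

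**Figure D3:**
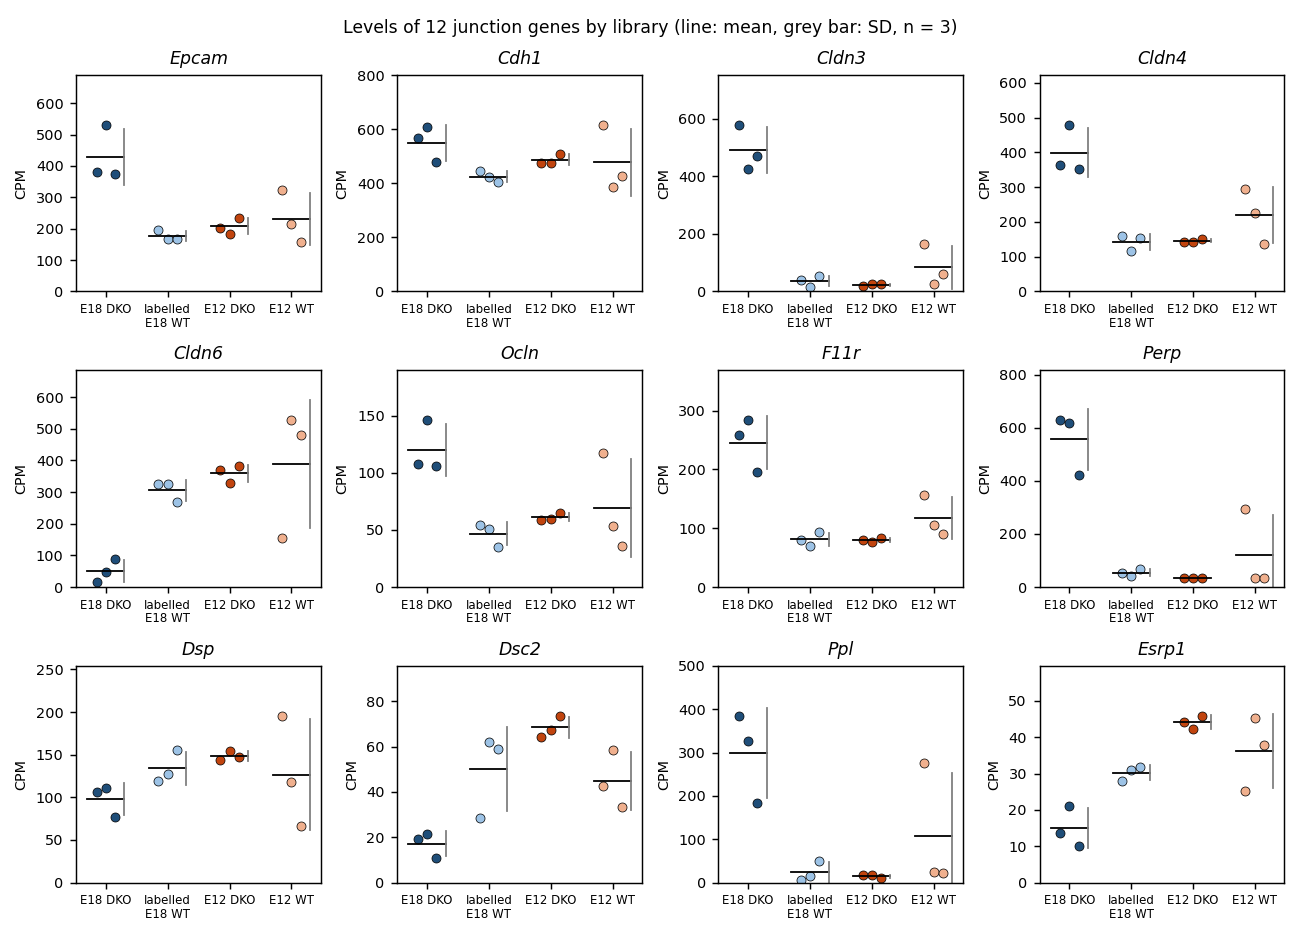
Points give CPM in each library for 12 junction genes, with the mean as a line and the SD (n = 3) as a grey bar that ends at 0 where it would pass below it. The E18 DKO points of Epcam, Cldn3, Cldn4, F11r and Perp lie above all others, those of Cldn6, Dsc2 and Esrp1 lie below all others, and E12 WT 1 stands apart from its group in Ocln, Perp and Ppl.

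The cytolinkers periplakin (Ppl) and envoplakin (Evpl) join keratin filaments to desmosomes and to the cornified envelope. Ppl (chromosome 16, 5086291 to 5132481) stood at 385, 327 and 184 CPM in E18 DKO, 5.65, 14.8 and 50.4 CPM in labelled E18 WT, 17.0, 16.5 and 9.78 CPM in E12 DKO, and 276, 23.4 and 21.0 CPM in E12 WT. The E18 groups did not overlap, and E12 WT 1 lay within the E18 DKO range. The log2 fold change was 3.66 ± 1.04 (SE; adjusted p = 0.016). It was 4.86 without labelled E18 WT 3, and the adjusted p was 0.0513 without labelled E18 WT 1 and 0.062 without labelled E18 WT 2. Evpl stood at 31.5, 25.0 and 11.3 CPM in E18 DKO and 2.45, 11.6 and 58.2 CPM in labelled E18 WT, where labelled E18 WT 3 was above every E18 DKO library. Its log2 fold change was -0.09 ± 0.96 (SE; adjusted p = 0.95), and 1.67 without labelled E18 WT 3. Per kb, Ppl stood at 5.57, 4.50 and 3.68 times the Dsp level in E18 DKO, against 0.0726, 0.179 and 0.498 times in labelled E18 WT.

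The remaining members were polarity genes, splicing factors and a protease. Crb3 and Pard6b, which encode apical polarity proteins, had log2 fold changes of 0.25 ± 0.17 and 0.61 ± 0.24 (SE; adjusted p = 0.258 and 0.063). Pard6b stood at 108, 107 and 95.9 CPM in E18 DKO and 76.2, 71.1 and 55.5 CPM in labelled E18 WT, without overlap, and its adjusted p was 0.00918 without E12 WT 1 and 0.0219 without E12 WT 3. Esrp1 and Esrp2 encode RNA-binding proteins that set epithelial splice forms. Esrp1 stood at 13.7, 20.9 and 10.2 CPM in E18 DKO, 27.9, 31.0 and 31.9 CPM in labelled E18 WT, 44.3, 42.2 and 45.9 CPM in E12 DKO, and 25.3, 45.3 and 38.0 CPM in E12 WT. It was lowest in the E18 DKO libraries, with a log2 fold change of -1.02 ± 0.26 (SE; adjusted p = 0.0104). Esrp2 stood at 41.8, 41.2 and 38.6 CPM in E18 DKO and 49.3, 46.3 and 41.3 CPM in labelled E18 WT, which overlapped (-0.17 ± 0.18 SE, adjusted p = 0.471). St14, which encodes matriptase, a membrane protease that cleaves Epcam, stood at 163, 205 and 121 CPM in E18 DKO and 94.6, 77.2 and 72.4 CPM in labelled E18 WT, and was higher in E18 DKO (1.00 ± 0.19 SE, adjusted p = 0.00227).

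Of the 18 calls at E18, 13 held in each of the 12 fits that left out 1 library. These were Epcam, Cldn3, Cldn4, Cldn6, Ocln, Marveld3, F11r, Dsc2, Perp, Pkp3, Jup, Esrp1 and St14. Calls that held were not counted over the other called genes, here or in the comparisons below. The count therefore cannot be read as particular to junction genes. With libraries scaled by their total counts alone, Jup and Pkp3 lost their call. So did Marveld2, Tjp1, Dsg2 and Pkp2 (adjusted p = 0.182, 0.0736, 0.0849 and 0.556). Under that scaling Cldn9, Cldn10 and Cgnl1 were called lower (adjusted p = 0.0417, 0.0445 and 0.0429).

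**Figure D4:**
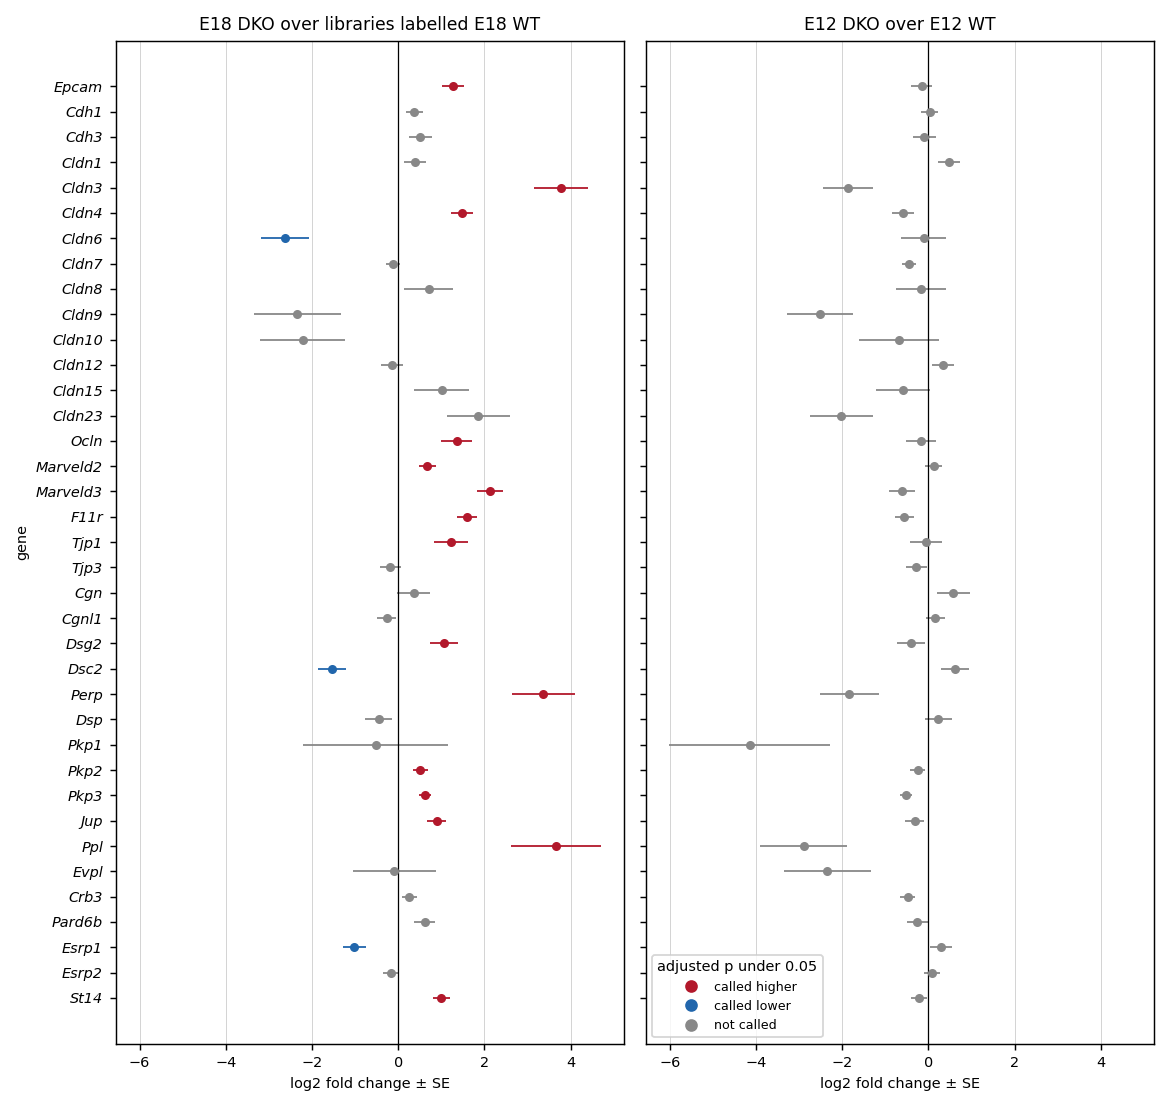
Points give the log2 fold change of each junction gene with its SE, for E18 DKO over labelled E18 WT and for E12 DKO over E12 WT. At E18 15 genes are called higher and 3 lower, and at E12 0 genes are called.

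Between the DKO stages, whose globin shares follow their labels, 13 members were higher and 4 lower in E18 DKO than in E12 DKO, which is 45.9% of the members against 46.0% of all genes. Higher calls took 35.1% of the members and 23.2% of all genes, and lower calls took 10.8% and 22.8%. Under total counts alone, which moved the median of all genes by -0.35, the split was 7 higher (18.9% of the members, against 15.5% of all genes) and 8 lower (21.6%, against 32.8%). This comparison shares the E18 DKO libraries with the one above, so the 2 are given side by side and neither adds support to the other. Cldn3 had a log2 fold change of 4.41 ± 0.64 between the stages (SE; adjusted p = 0.000416), Perp of 4.04 ± 0.75 (adjusted p = 0.00161) and Ppl of 4.37 ± 1.08 (adjusted p = 0.00724). F11r had 1.62 ± 0.23 (adjusted p = 0.000329), Cldn4 1.45 ± 0.26 (adjusted p = 0.00133), Marveld3 1.87 ± 0.30 (adjusted p = 0.000751) and Epcam 1.05 ± 0.25 (adjusted p = 0.00655).

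The embryonic claudin gene Cldn6 was lower in E18 DKO than in E12 DKO by -2.85 ± 0.56 on the log2 scale (SE; adjusted p = 0.00219), or -3.52 without E18 DKO 3. The other lower members were Dsc2 (-1.99 ± 0.34, adjusted p = 0.000946), Esrp1 (-1.56 ± 0.27, adjusted p = 0.00103) and Esrp2 (-0.57 ± 0.18, adjusted p = 0.0248). Esrp2 stood at 41.8, 41.2 and 38.6 CPM in E18 DKO and 60.2, 57.1 and 62.8 CPM in E12 DKO, without overlap. Cldn15, a claudin that forms sodium pores in the gut, stood at 39.7, 18.8 and 12.6 CPM in E18 DKO and 6.05, 5.22 and 9.11 CPM in E12 DKO (1.80 ± 0.64 SE, adjusted p = 0.0389), but its fold change was 1.21 with an adjusted p of 0.173 without E18 DKO 1. Ocln, Dsg2, Pkp3, Jup and St14 were also higher, by 0.97, 0.87, 0.61, 0.75 and 0.81 on the log2 scale. Leaving out 1 library at a time ended the call in some fits for Cldn15 (6 of 12 fits), Dsg2 (9), Ocln (8), Esrp2 (5) and Jup (3), with adjusted p-values between 0.05 and 0.173, and in none for the other 12. Cdh1 (0.18 ± 0.20 SE, adjusted p = 0.483) and Dsp (-0.60 ± 0.31 SE, adjusted p = 0.138) did not pass.

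At E12 the test called 0 of the 37 junction genes between DKO and WT, against 0.353% of all genes (0.0936% higher and 0.259% lower). At an unadjusted p under 0.05 there were 12 members (and 24.3% of all genes), all lower in DKO. The DESeq2 Wald test called 5 lower (Cldn3, Cldn9, Cldn23, Pkp3 and Ppl), beside 688 higher and 1264 lower genes among all 30511 it fitted, and limma voom called 0. Pkp3 stood at 35.9, 34.4 and 36.0 CPM in E12 DKO and 55.9, 46.4 and 49.6 CPM in E12 WT, without overlap (log2 fold change -0.51 ± 0.14 SE, adjusted p = 0.087). Crb3 stood at 37.5, 39.7 and 38.6 CPM in E12 DKO and 46.8, 57.2 and 57.7 CPM in E12 WT, also without overlap (-0.48 ± 0.17 SE, adjusted p = 0.137). Cldn7 stood at 101, 87.2 and 109 CPM in E12 DKO and 147, 145 and 114 CPM in E12 WT (-0.45 ± 0.16 SE, adjusted p = 0.138).

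Within E12 WT, libraries 1 and 3 stood apart from the rest. E12 WT 1 was above all other 5 E12 libraries in 27 of the 37 members and below them in 4, while over all tested genes it was above in 28.4% and below in 27.5%. E12 WT 3, the library with the high mitochondrial share, was above the other 5 in 2 members and below them in 13, against 27.8% and 29.1% of all genes. Without E12 WT 3 the test called 0 members, and 0.0482% of all genes. Cldn3 had a log2 fold change of -1.86 ± 0.58 (SE; adjusted p = 0.105), Perp of -1.84 ± 0.69 (adjusted p = 0.145) and Ppl of -2.89 ± 1.01 (adjusted p = 0.129), and all 3 genes stood at their highest E12 level in E12 WT 1. Without that library the fold changes were -0.87 for Cldn3 (adjusted p = 0.172), -0.01 for Perp (adjusted p = 0.977) and -0.62 for Ppl (adjusted p = 0.541), and 4 members were called (10.8%, against 17.1% of all genes): Cgn (1.15, adjusted p = 0.0304) and Cldn1 (0.77, adjusted p = 0.0385) were higher in DKO, and Pkp3 (-0.43, adjusted p = 0.0485) and Crb3 (-0.57, adjusted p = 0.0456) were lower. Cdh1 (0.03 ± 0.20 SE, adjusted p = 0.941), Epcam (-0.16 ± 0.25 SE, adjusted p = 0.732) and Dsp (0.23 ± 0.31 SE, adjusted p = 0.679) had fold changes within 1 SE of 0. The median spread of a member within its group, as highest over lowest CPM among the 32 members over 5 CPM, was 1.13 in E12 DKO, against 1.88 in E12 WT. Over all genes above that level it was 1.15 in E12 DKO and 1.77 in E12 WT.

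Between WT libraries labelled E18 and E12 WT, 0 members were called, against 0.953% of all genes (0.292% higher and 0.661% lower). At an unadjusted p under 0.05 there were 9 members (24.3%, against 18.1% of all genes). The DESeq2 Wald test called 3 lower (Pkp3, Cldn7 and Cldn9) beside 452 higher and 738 lower genes in all, and limma voom called 0. Of the 17 members called between the DKO stages, 14, 16 and 15 stood nearer to the E12 DKO mean than to the E18 DKO mean in labelled E18 WT 1, 2 and 3. In E12 WT 1, 2 and 3 the numbers were 4, 15 and 15. Nearness was not counted over the other genes called between the DKO stages, so it cannot be read as particular to junction genes.

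The genotype difference itself differed between the labelled stages in 18 members. By the interaction term of the same fit, 15 were higher and 3 lower, which is 48.6% of the members against 41.9% of all genes. Higher calls took 40.5% of the members and 21.6% of all genes, and lower calls 8.11% and 20.3%. Under total counts alone, which moved the median of all genes by -0.66, the split was 7 and 7 (18.9% of the members each way, against 12.0% of all genes higher and 35.5% lower). Cldn23 and Crb3 passed here though neither genotype difference alone did, while Marveld2 and Tjp1 did not pass.

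Other junction genes were counted from lists of their pathway. Of 31 tested other tight junction genes, 6 were higher and 6 lower in E18 DKO than in labelled E18 WT, 19.4% each way, against 20.5% and 21.8% of all genes (median log2 fold change 0.22, against -0.04 for all genes). Lsr, which encodes the angulin that recruits tricellulin, stood at 201, 212 and 154 CPM in E18 DKO and 88.3, 77.3 and 89.2 CPM in labelled E18 WT (1.16 ± 0.17 SE, adjusted p = 0.000538). Ybx3, which encodes a transcription factor held at tight junctions by ZO-1, changed by 1.25 ± 0.19 on the log2 scale (adjusted p = 0.000664), and Igsf5, which encodes the adhesion molecule JAM4, by 1.57 ± 0.26 (adjusted p = 0.000941). Cldn13 had 0 counts in all 3 E18 DKO libraries, against 0.754, 1.52 and 0.533 CPM in labelled E18 WT. Of 20 other adherens junction genes, 5 were higher and 7 lower (25% and 35%, median -0.05). Camsap3, which encodes a microtubule minus-end protein, stood at 25.8, 27.2 and 29.9 CPM in E18 DKO and 70.9, 70.5 and 60.1 CPM in labelled E18 WT (-1.28 ± 0.17 SE, adjusted p = 0.000288). Nectin2 and the p120-catenin gene Ctnnd1 were higher, by 0.93 ± 0.14 and 0.94 ± 0.19 (SE; adjusted p = 0.000569 and 0.00254).

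Of 8 other desmosome genes, those of the epidermal desmogleins and desmocollins among them, 2 had enough counts to be tested, and Pkp4 was lower (-0.79 ± 0.23 SE, adjusted p = 0.0181). Hemidesmosomes anchor epithelia to the basement membrane, and 4 of 6 of their genes were higher and 0 lower (median 1.44). Itga6 and Col17a1 did not pass, and Col17a1 went the other way (0.87 ± 0.41 and -1.23 ± 0.59 SE, adjusted p = 0.107 and 0.114). The higher share was 66.7%, against 20.5% of all genes. Itgb4, which encodes integrin beta 4, stood at 239, 175 and 169.8 CPM in E18 DKO and 68.3, 65.2 and 27.8 CPM in labelled E18 WT (1.86 ± 0.42 SE, adjusted p = 0.00484). Cd151, Dst and Plec, which encode a tetraspanin partner of laminin-binding integrins and a pair of plakins, were higher by 1.41 ± 0.24, 1.46 ± 0.34 and 1.53 ± 0.35 (SE; adjusted p = 0.00105, 0.00612 and 0.00562).

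Of the genes listed with matriptase, its inhibitors Spint1 and Spint2 were higher. Spint1 stood at 432, 569 and 666 CPM in E18 DKO and 143, 129.9 and 110.1 CPM in labelled E18 WT (2.12 ± 0.22 SE, adjusted p = 0.000124), and Spint2 changed by 1.05 ± 0.21 (adjusted p = 0.0027). In all 2 of the 5 genes of this list were higher and 2 lower (40% each way, against 20.5% and 21.8% of all genes). Of 13 epithelial transcription factor genes, 1 was higher and 3 lower (7.69% and 23.1%, median -0.27). Klf5 stood at 60.1, 69.2 and 47.5 CPM in E18 DKO and 9.31, 8.32 and 7.47 CPM in labelled E18 WT (2.82 ± 0.81 SE, adjusted p = 0.0167). Grhl3, a Grainyhead-like factor, stood at 0.0550, 0.213 and 0.0545 CPM in E18 DKO and 4.60, 7.53 and 22.8 CPM in labelled E18 WT (-6.61 ± 1.16 SE, adjusted p = 0.0013), and Tfap2a changed by -2.37 ± 0.48 (adjusted p = 0.00275).

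Among 9 genes of repressors of epithelial genes and mesenchymal partners, 2 were higher and 4 lower (22.2% and 44.4%, against 20.5% and 21.8% of all genes). Snai2, Twist1 and Twist2 were lower, by -2.05 ± 0.35, -2.31 ± 0.45 and -3.29 ± 0.66 on the log2 scale (SE; adjusted p = 0.0012, 0.00229 and 0.00266). Snai1 was higher (1.33 ± 0.31 SE, adjusted p = 0.00569), and Zeb1 did not pass (0.01 ± 0.40 SE, adjusted p = 0.983). The mesenchymal gene Vim stood at 1475, 819 and 1496 CPM in E18 DKO and 319, 331 and 574 CPM in labelled E18 WT, without overlap. At E12 the test called 1 of the 85 genes of these pathway lists, Ybx3, which was lower in DKO, and 14 (16.5%) had an unadjusted p under 0.05, against 24.3% of all genes.

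Cell type marker lists went in both directions in E18 DKO, and their part in the results was not tested. The simple epithelium keratin genes Krt7, Krt8, Krt18 and Krt19 were all 4 higher in E18 DKO, with a summed level of 5493 to 7302 CPM, against 1877 to 2538 CPM in labelled E18 WT, 1659 to 2041 CPM in E12 DKO and 2889 to 4865 CPM in E12 WT. The highest of the E12 WT libraries was again E12 WT 1. The 9 visceral yolk sac endoderm genes summed to 80117 to 160909 CPM in E18 DKO and 52928 to 80855 CPM in labelled E18 WT. Of the 9, 2 were higher (Apoa1 and Apoa4), 0 lower and 7 not called, with a median log2 fold change of 0.03. Afp and Apoa1 made up most of the sum. Among those not called, Cubn ran from 164 to 1544 CPM in E18 DKO and from 643 to 2207 CPM in labelled E18 WT. Hnf4a ran from 142 to 257 CPM and from 130 to 281 CPM in the same groups. The 6 mesenchyme genes summed to 2637 to 4745 CPM in E18 DKO and 13310 to 29239 CPM in labelled E18 WT, and 4 of 6 were lower and 1 higher. Most of that sum came from the matrix genes Col1a1, Col1a2, Col3a1 and Postn. The receptor gene Pdgfrb stood at 124, 102 and 111 CPM in E18 DKO and 65.0, 72.7 and 91.3 CPM in labelled E18 WT. Pdgfra ran from 109 to 184 CPM in E18 DKO and from 81.3 to 152 CPM in labelled E18 WT, which overlapped. The 5 leukocyte genes summed to 648 to 990.4 CPM in E18 DKO and 206 to 246 CPM in labelled E18 WT, with 2 higher and 1 lower. Csf1r made up most of their sum, at 589, 588 and 804 CPM in E18 DKO and 210, 171 and 166 CPM in labelled E18 WT. The general leukocyte gene Ptprc ran from 3.54 to 7.24 CPM in E18 DKO and from 4.60 to 8.08 CPM in labelled E18 WT, which overlapped. The 6 endothelial genes summed to 319 to 349 CPM in E18 DKO and 168 to 315 CPM in labelled E18 WT, with 3 higher and 1 lower, and all 6 erythroid genes were lower in E18 DKO.

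Of the 8 stratified and amnion-type genes, 1 was higher (Krt14, at 455, 359 and 281 CPM in E18 DKO and 8.59, 0.381 and 1.27 CPM in labelled E18 WT) and 4 were lower (Krt5, Tfap2a, Gabrp and Wnt6). Krt5, the partner keratin of Krt14 in basal cells, ran from 0.763 to 0.879 CPM in E18 DKO and from 14.4 to 166 CPM in labelled E18 WT. Gabrp, which encodes a GABA receptor subunit, ran from 0.128 to 0.218 CPM in E18 DKO and from 4.52 to 269 CPM in labelled E18 WT. Their sum was 286 to 460.1 CPM in E18 DKO and 54.4 to 480.1 CPM in labelled E18 WT, the highest being labelled E18 WT 3, and Krt14 made up nearly all of it in E18 DKO. Of the 7 cornifying epidermis genes, 4 were tested and 2 were higher, and Sbsn made up most of their sum of 159 to 205 CPM in E18 DKO, against 4.69 to 24.0 CPM in labelled E18 WT. The defining gene Krt1 stood at 0 counts in all 3 E18 DKO libraries. The 8 trophoblast and decidua genes summed to 1.26 to 37.7 CPM in E18 DKO and 13.1 to 844 CPM in labelled E18 WT, where labelled E18 WT 3 stood apart. Without both E12 WT 1 and labelled E18 WT 3, 16 members were higher and 3 lower at E18. That is 43.2% and 8.11% of the members, against 24.7% and 24.8% of all genes.

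**Figure D5:**
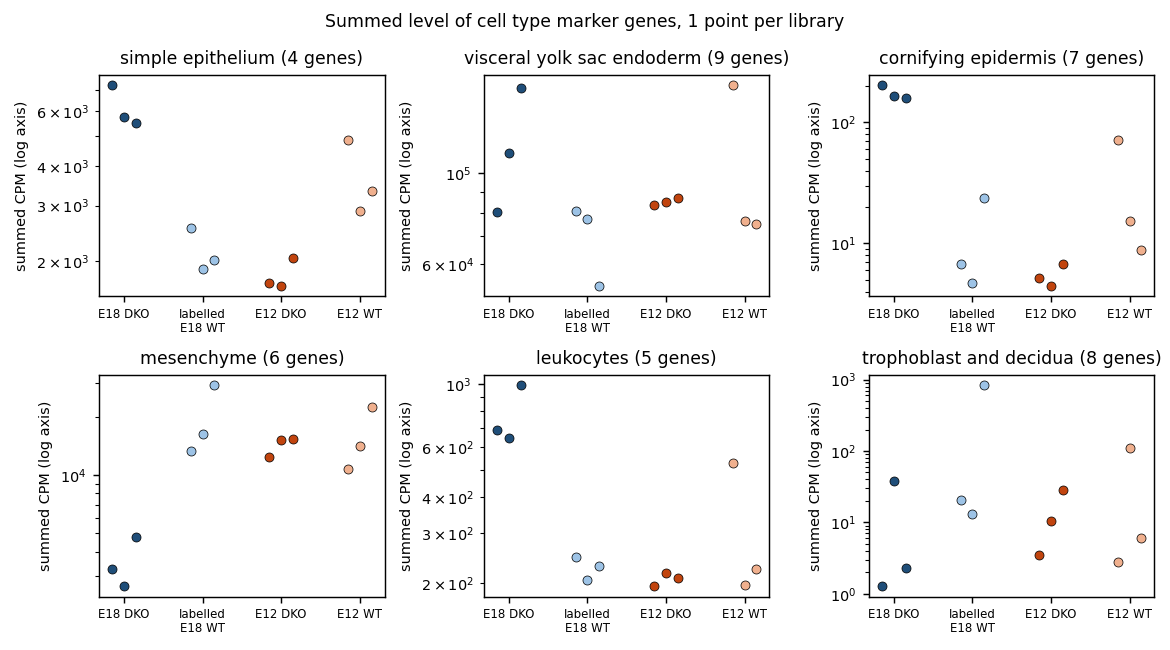
Points give the summed CPM of 6 marker lists in each library, on log axes. Simple epithelium, cornifying epidermis and leukocyte sums are highest in the E18 DKO libraries, the mesenchyme sum is lowest there, and the trophoblast and decidua sum is highest in labelled E18 WT 3. Csf1r makes up most of the leukocyte sum, and Col1a1, Col1a2, Col3a1 and Postn make up most of the mesenchyme sum.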

How the data were processed

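RNA from frozen, ground fetal membranes was made into stranded mRNA libraries, per the labels' protocols. The submitters' processing notes name Trimmomatic 0.36, STAR 2.4.2a, Subread 1.5.0 and the build GRCm38. Per the file headers, featureCounts counted reads on exons of Ensembl release 86 on the reverse strand, so antisense genes are counted apart. The deposited values are raw counts per gene with no normalization, and the deposited length column gave the kb in CPM per kb. The counts of E12 DKO 1 come from the series table, and 11 own files were identical to a column of it. Members were matched by symbol, 48349 IDs having one. No exon of a member overlapped another gene on its strand.

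Genes were filtered with filterByExpr, and TMM factors and a quasi-likelihood model with 1 mean per group were fitted to all 12 libraries in edgeR 4.0.16 (R 4.3.3), with 8 residual degrees of freedom and a biological coefficient of variation of 0.373. SE is the absolute log2 fold change over the square root of F. P-values were adjusted by Benjamini-Hochberg over 18153 genes and called under 0.05. Alternatives used DESeq2 1.42.0 and limma 3.58.1, other scalings and filters, a 2-fold threshold, a replicate block and leaving out libraries. The procedure was tested on simulated counts. Members, lists and alternatives were chosen with earlier results of these data known. Values per library are given for up to 4 members of each role with the lowest adjusted p at E18, up to 2 in other comparisons, and Epcam, Cdh1, Cldn6, Ocln, Dsp and Esrp1, and up to 3 genes of each other list with the lowest adjusted p. Cldn2, Cldn13, Vim, Zeb1, Snai1, Dst, Itga6 and Col17a1 were named after their values were seen. So were Krt1, Krt5, Krt14, Gabrp, Wnt6, Sbsn and the single genes named from the other marker lists. Figures used matplotlib 3.10.9.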

Additional observations from a re-analysis of the deposited data

Results flagged for a closer look

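In 18 junction genes the DKO against WT difference at E18 differed from that at E12 by edgeR's quasi-likelihood test of the interaction term (adjusted p under 0.05), the background being 41.9% of all genes. All values are the log2 difference at E18 minus that at E12, and they rest on the 3 libraries labelled E18 WT and on E12 WT 1, whose globin shares went against their labels. In the tight junction, the difference was 5.64 for Cldn3, 2.07 for Cldn4, 3.88 for Cldn23, 2.74 for Marveld3, 2.15 for F11r, 1.54 for Ocln and -2.51 for Cldn6. In the desmosome and its links to keratin, it was 5.20 for Perp, 1.46 for Dsg2, -2.15 for Dsc2, 0.77 for Pkp2, 1.14 for Pkp3, 1.22 for Jup and 6.55 for Ppl. It was 1.44 for Epcam, 0.73 for Crb3, 1.23 for St14 and -1.30 for Esrp1.

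Some values moved by more than 1.5 times as unlogged folds when 1 library was left out. Without E12 WT 1 these were, on the log2 scale, 4.65 for Cldn3, 2.38 for Cldn23, 0.91 for Ocln, 0.83 for Dsg2, 3.38 for Perp and 4.28 for Ppl, and all of these were still called. Ppl was at 7.75 without labelled E18 WT 3, and Cldn6 at -3.18 without E18 DKO 3. The calls of Ocln, Dsg2, Pkp2 and Crb3 were lost in 6, 5, 6 and 9 of the 12 fits that left out 1 library. No junction gene was screened for single outlying samples, since groups of 3 are too small for that.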

How the results depend on the processing

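The E18 split of 15 higher and 3 lower was the same with DESeq2 size factors, the 1 CPM filter, the DESeq2 Wald test and the replicate block, and stayed within 1.5 times of it with no filter, voom, only the groups compared, or without both E12 WT 1 and labelled E18 WT 3. Over all genes these settings called between 11.5% (no filter) and 24.7% (both left out) higher, and between 12.3% and 24.8% lower. Against a 2-fold threshold 5 were higher and 1 lower at E18 (13.5% and 2.70% of the members, against 7.03% and 8.49% of all genes). For the interaction 7 and 1 were called (18.9% and 2.70%, against 10.7% and 9.76%). Between DKO stages it was 5 and 3 (13.5% and 8.11%, against 8.65% and 8.33%). With library size alone the splits were 9 and 6, 7 and 7, and 7 and 8 (causes not tested). The DESeq2 Wald test called 5 lower at E12 (13.5% of the members, against 4.14% of all genes) and 3 lower between WT stages (8.11%, against 2.42%). Without both E12 WT 1 and labelled E18 WT 3, 2 were higher and 2 lower at E12 (5.41% of the members each way, against 8.33% and 11.9% of all genes). For the interaction 5 were then lower (13.5%, against 23.8%). Leaving out 1 library gave 0 to 2 higher and 0 to 2 lower at E12, against 0% to 6.93% and 0.00535% to 10.2% of all genes. At E18 it gave 11 to 18 and 3 to 4, against 14.9% to 24.8% and 15.5% to 25.7%. For the interaction it gave 11 to 16 and 3 to 6 (6 without E12 WT 1), against 17.0% to 22.6% and 15.9% to 22.9%. Between DKO stages it gave 9 to 17 and 3 to 5, against 16.9% to 27.3% and 16.5% to 26.2%. Between WT stages it gave 0 and 0 to 1, against 0.0375% to 3.38% and 0.128% to 5.61%.

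Directions turned in members that did not pass. Those that turned at E12 included, on the log2 scale, Epcam (0.14 with library size alone, 0.16 without both libraries), Cldn6 (0.16 with library size alone, 0.063 with the replicate block, 0.076 with voom), Ocln (0.14 with library size alone, 0.45 without both) and Pkp1 (2.67 without both). Tjp1 turned to 0.26 with library size alone, 0.054 with the replicate block, 0.12 with voom and 0.64 without both. Dsg2 turned to 0.23 without both. At E18 they were Evpl (0.85 with voom, 1.67 without both) and Crb3 (-0.11 with library size alone), and between DKO stages they included Cdh1 (-0.17 with library size alone). Leaving out 1 library gave ranges at E12 of -0.37 to 0.16 for Epcam, -0.093 to 0.26 for Cdh1, -0.48 to 0.17 for Cldn6, -0.48 to 0.46 for Ocln, -0.078 to 0.69 for Dsp and -7.21 to 2.68 for Pkp1. At E18 they were -0.18 to 0.0065 for Cldn7, -0.42 to 0.029 for Cldn12, -0.37 to 0.0091 for Tjp3, -1.31 to 0.089 for Pkp1 and -0.63 to 1.67 for Evpl. Counting all 37 members and the settings that leave out no single library, 10 turned at E12 with library size alone, 10 without both libraries, and 2 each with the replicate block and voom. At E18 1 turned under each of library size alone, voom and leaving out both. For the interaction 5, 1 and 2 turned under these settings, and between WT stages 5, 1 and 9, and 1 with the replicate block. Between DKO stages 4 turned, with library size alone. None of these members had been called. The cause was not tested.

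Same-numbered libraries deviated together with correlations between -0.176 and 0.288, not all over 0.1, so the numbers were not taken to pair samples. With the replicate block 15 members were higher and 3 lower at E18 (40.5% and 8.11%, against 20.1% and 21.2% of all genes). For the interaction it was 14 and 3 (37.8% and 8.11%, against 20.1% each way). Between DKO stages it was 12 and 4 (32.4% and 10.8%, against 22.4% and 22.8%), and 0 at E12 and between WT stages. Members at a few counts (Cldn9, Cldn10, Pkp1) are limited by depth.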
